A study of Mus musculus with 12 samples.

Results

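Dendritic cells labelled Flt3L KO, for the cytokine FLT3L, were set against those labelled Flt3 KO, for FLT3, the receptor for it. Both groups were of a single cell type, the splenic cDC1. The members were chosen by title. They are the 2 Flt3L KO cDC1 arrays and the 2 Flt3 KO cDC1 arrays, 4 of the 12 arrays of the series. All 12 arrays were hybridised with RNA from mature conventional dendritic cells sorted from spleens of mice that were not challenged. The series crosses 3 genotypes, Flt3L KO, Flt3 KO and WT, with the cell types cDC1 and cDC2, at 2 biological replicates each. The WT cDC1 arrays and the 6 cDC2 arrays serve here for orientation, and they also enter the pooled spread behind every p-value. The labels give no age, no allele, no deleted part of either gene and no number of mice per array. The p-values therefore rest only on the spread between arrays labelled as biological replicates. How much of that spread comes from differences between mice is not known. The labels also do not say whether the knockouts are germline or on 1 strain background.

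FLT3 is a receptor tyrosine kinase of blood progenitors and dendritic cells. Binding of FLT3L pairs the receptors and starts signalling through PI3K and mTOR, through RAS and ERK, and through STAT proteins, and it drives dendritic cell output. cDC1 are the dendritic cells that depend on IRF8 and BATF3, carry XCR1 and CLEC9A, and pass antigen from dead cells to CD8 T cells. By their labels, the Flt3L KO arrays stand for loss of the ligand and the Flt3 KO arrays for loss of the receptor.

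Each gene has 1 linear intensity per array, and differences are log2 Flt3L KO minus Flt3 KO with the standard error (SE) from limma. A gene was called at an adjusted p under 0.05 over 14953 tested genes. The arrays had median intensities of 59.0 to 63.0, and the lower quartile of an array lay between 23.3 and 25.7. The SD across genes of the log2 difference between replicates was 0.144 for Flt3L KO cDC1, 0.133 for Flt3 KO cDC1 and 0.210 for WT cDC1. In sorted bulk RNA, fewer cells carrying a transcript and less transcript per cell cannot be told apart.

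The targeted genes were read first. Flt3 had intensities of 2426 and 2456 in Flt3L KO cDC1, against 357 and 370.4 in Flt3 KO cDC1. The WT cDC1 arrays had 2333 and 2265, beside the Flt3L KO arrays. The difference was 2.75 ± 0.07, 6.71-fold, with an adjusted p of 3.53e-10. The Flt3 KO arrays lay far below both other genotypes. Flt3l, the ligand gene, had 119 and 129 in Flt3L KO cDC1, against 124 and 124 in Flt3 KO cDC1, and 114 and 113 in WT cDC1. The Flt3L KO and Flt3 KO arrays overlapped, and the difference was 0.00 ± 0.08 (adjusted p = 0.984). No source used here gives the deleted part of Flt3l, so its probe set is no check on the Flt3L KO arrays.

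Both groups carried the defining markers of cDC1. Xcr1, the receptor for the chemokine XCL1, had 2421 and 2469 in Flt3L KO cDC1, against 3020.2 and 2885 in Flt3 KO cDC1. The cDC2 arrays of the same genotypes had 62.0 and 70.6 in Flt3L KO and 56.3 and 63.1 in Flt3 KO. Clec9a, the sensor of dead cells, had 2657 and 2593 in Flt3L KO cDC1, against 3094 and 2852 in Flt3 KO cDC1. Irf8 had 3368 and 3146 in Flt3L KO and 3098 and 2867 in Flt3 KO, and Batf3 had 818 and 828 in Flt3L KO and 808 and 881 in Flt3 KO. None of Xcr1, Clec9a, Irf8, Batf3, Cd8a (0.07), Itgae (0.39) and Zbtb46 (0.03) was called, with adjusted p-values from 0.144 for Itgae to 0.941 for Zbtb46. The cDC2 marker Sirpa had 149 and 128 in Flt3L KO and 101 and 113 in Flt3 KO. Irf4, another, had 103 and 130.2 in Flt3L KO and 143 and 169 in Flt3 KO. Both genes lay between the median and the upper quartile of these arrays and were not called either (adjusted p = 0.0747 and 0.125). Siglech, of plasmacytoid dendritic cells, had 94.2 and 55.4 in Flt3L KO and 65.1 and 62.9 in Flt3 KO (adjusted p = 0.727).

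Of 14953 tested genes, 132 were called between Flt3L KO and Flt3 KO cDC1, a percentage of 0.883. Of these, 33 were higher (0.221%) and 99 were lower (0.662%) in Flt3L KO cDC1. The arrays of both groups did not overlap for 51.2% of all tested genes. The differences were small: 12 called genes passed 2-fold and 54 passed 1.5-fold. The median log2 difference over all tested genes was 0.01, and 2363 genes had an unadjusted p under 0.05. The number called rested on single arrays. It was 17 without Flt3L KO replicate 1, 63 without Flt3L KO replicate 2, 20 without Flt3 KO replicate 1 and 16 without Flt3 KO replicate 2. Removing either WT cDC1 array, which enters the pooled spread alone, gave 349, in fits added after the data were seen. All 132 genes kept their sign in each of these fits. The 14 genes called in all 4 fits that left out a knockout array were Flt3, Mid1, Lnx2, Ndrg1, Adgrf5, Adgrl3, Cd300c, Clec4b2, Cxcl2, Entpd1, Fcrla, Hpgd, Ms4a1 and Rtn1. Every other gene called below lost its call in at least 1 of those fits.

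**Figure D1:**
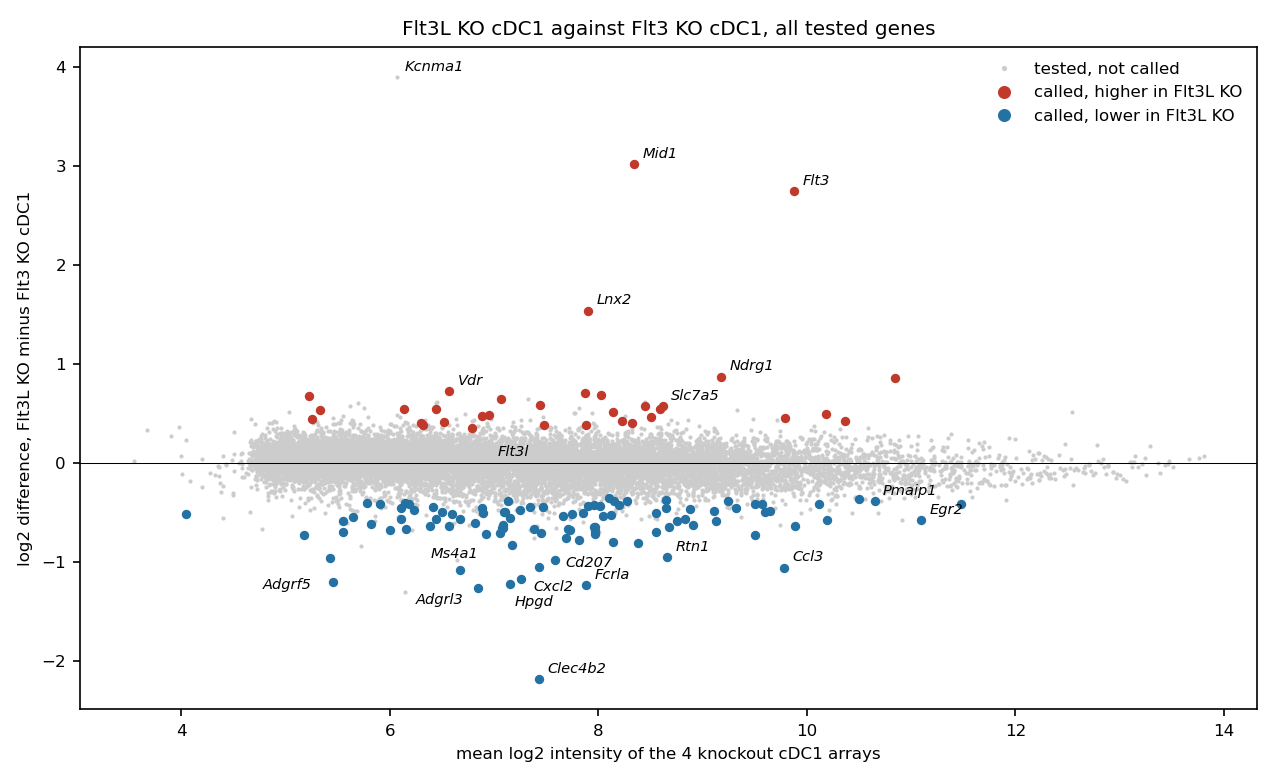
Log2 difference of each of 14953 tested genes, Flt3L KO minus Flt3 KO cDC1 (vertical axis), against its mean log2 intensity on the 4 knockout cDC1 arrays (horizontal axis); red points are the 33 genes called higher and blue points the 99 called lower in Flt3L KO. Mid1, Flt3 and Lnx2 stand above the other called genes and Clec4b2 stands below them, while the grey point Kcnma1 had a large difference but was not called.

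The WT cDC1 arrays place these differences. For 102 of the 132 genes (77.3%), the WT mean lay nearer the Flt3 KO mean than the Flt3L KO mean, against 52.1% of all tested genes. In a fit without WT replicate 2, which called 349 genes, the share was 49.9% of them. Over the 132 genes and by WT replicate 1 alone it was 66.7% (45.4% of all tested), and by WT replicate 2 alone 78.8% (61.3% of all tested). With both WT arrays it was 29 of the 33 genes higher in Flt3L KO cDC1 and 73 of the 99 lower ones. The WT mean lay between the 2 knockout means for 102 of the 132 genes as well (77.3%), against 32.2% of all tested genes. By direction, this held for 18 of the 33 higher genes and 84 of the 99 lower ones. These counts use the arrays that picked the genes and are given as a description. Called directly against WT, 178 genes (1.19%) differed in Flt3L KO cDC1 and 12 (0.0803%) in Flt3 KO cDC1. At an unadjusted p under 0.05 in limma, the counts were much closer, 2558 in Flt3L KO and 1873 in Flt3 KO. The called counts therefore do not measure how far each knockout lay from WT, and both comparisons share the WT arrays.

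Of the 33 genes higher in Flt3L KO cDC1, Mid1 had the largest difference. Mid1, an X-linked gene for a ubiquitin ligase of microtubules, had 1068 and 804 in Flt3L KO cDC1, against 97.0 and 135 in Flt3 KO cDC1. The WT cDC1 arrays had 169.5 and 183. The difference was 3.02 ± 0.23, 8.11-fold, with an adjusted p of 4.81e-05. Flt3L KO arrays stood apart from both other genotypes. Against WT cDC1, Mid1 differed by 2.39 in Flt3L KO (adjusted p = 4.92e-04) and by -0.63 in Flt3 KO (adjusted p = 0.32). In cDC2, Mid1 had 1554 and 1382 in Flt3L KO cDC2, against 198 and 359 in Flt3 KO cDC2, and 398 and 395 in WT cDC2 (2.46 ± 0.23, adjusted p = 4.84e-04).

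Lnx2, for another ubiquitin ligase, had 359 and 462 in Flt3L KO cDC1, against 138 and 143 in Flt3 KO cDC1, and 393 and 346 in WT cDC1. Here it was the Flt3 KO arrays that lay apart. The difference was 1.54 ± 0.12 (2.90-fold, adjusted p = 4.81e-05). Lnx2 lies close to Flt3 on chromosome 5. Within 20 genes on either side of Flt3 in the RefSeq gene order, 16 genes were tested and 2 were called higher in Flt3L KO cDC1, Lnx2 and its neighbour Polr1d, an RNA polymerase subunit gene, where 0.221% of all tested genes were called higher. Polr1d had 1038 and 1025 in Flt3L KO cDC1, against 734 and 778 in Flt3 KO cDC1, and 1181 and 1187 in WT cDC1 (0.45 ± 0.08, adjusted p = 0.0306). A second, dimmer Polr1d probe set differed by only 0.09. None of the 16 was called lower. Flt1, a receptor tyrosine kinase gene in that stretch, differed by -0.41 ± 0.12 (adjusted p = 0.138). Around Flt3l on chromosome 7, 25 neighbours were tested and none was called, which is near the 0.883% of all tested genes.

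Ndrg1, a gene induced by hypoxia and other stress, had 848 and 721 in Flt3L KO cDC1, against 420.2 and 435 in Flt3 KO cDC1. WT cDC1 had 438 and 439, level with Flt3 KO. The difference was 0.87 ± 0.10 (1.83-fold, adjusted p = 9.77e-04). Slc7a5, the large neutral amino acid transporter, had 482 and 474 in Flt3L KO cDC1, against 308 and 336 in Flt3 KO cDC1, and 366 and 364 in WT cDC1. The Flt3L KO arrays were the highest of the 6 cDC1 arrays, with a difference of 0.57 ± 0.07 (adjusted p = 0.00367). Slc15a4, a lysosomal peptide and histidine transporter, rose with them (0.42 ± 0.07, adjusted p = 0.0245). Slc7a5 was the single called gene among 25 tested genes of mTORC1 and the amino acid response, whose median difference was 0.06.

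Regulators of transcription and signalling were among the other rises. Vdr, the vitamin D receptor, had 129 and 115 in Flt3L KO cDC1, against 74.7 and 73.1 in Flt3 KO cDC1 (0.72 ± 0.12, adjusted p = 0.0208). Pml, which organises nuclear bodies, had 449 and 406 in Flt3L KO cDC1, against 291 and 283 in Flt3 KO cDC1 (0.57 ± 0.12, adjusted p = 0.047). In both cases the groups did not overlap, and WT cDC1 lay near Flt3 KO, at 59.0 and 79.9 for Vdr and 256 and 316 for Pml. Ffar4, a receptor for long-chain fatty acids, had 331 and 331 in Flt3L KO cDC1, against 209 and 203 in Flt3 KO cDC1, and 198 and 209 in WT cDC1 (0.69 ± 0.11, adjusted p = 0.0165). Il2rb, the beta chain of the IL-2 and IL-15 receptors, was dim at 52.1 and 44.8 in Flt3L KO and 32.5 and 34.3 in Flt3 KO (0.53 ± 0.11, adjusted p = 0.043). Smad7, an inhibitor of TGF-beta signalling, differed by 0.40 ± 0.08 (adjusted p = 0.0483) and Jag1, a Notch ligand, by 0.48 ± 0.09 (adjusted p = 0.0327). The remaining named rises, between 0.53 and 0.71, were Ifi27l2a, Olfr1382, Adam11, Gtf3c5, Rnf217 and Rasgrp2. Adam11, a protease relative without catalytic activity, had 171 and 163 in Flt3L KO and 116 and 98.8 in Flt3 KO, against 69.2 and 68.4 in WT, and both knockouts were called higher than WT (adjusted p = 1.57e-05 and 0.0136).

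**Figure D2:**
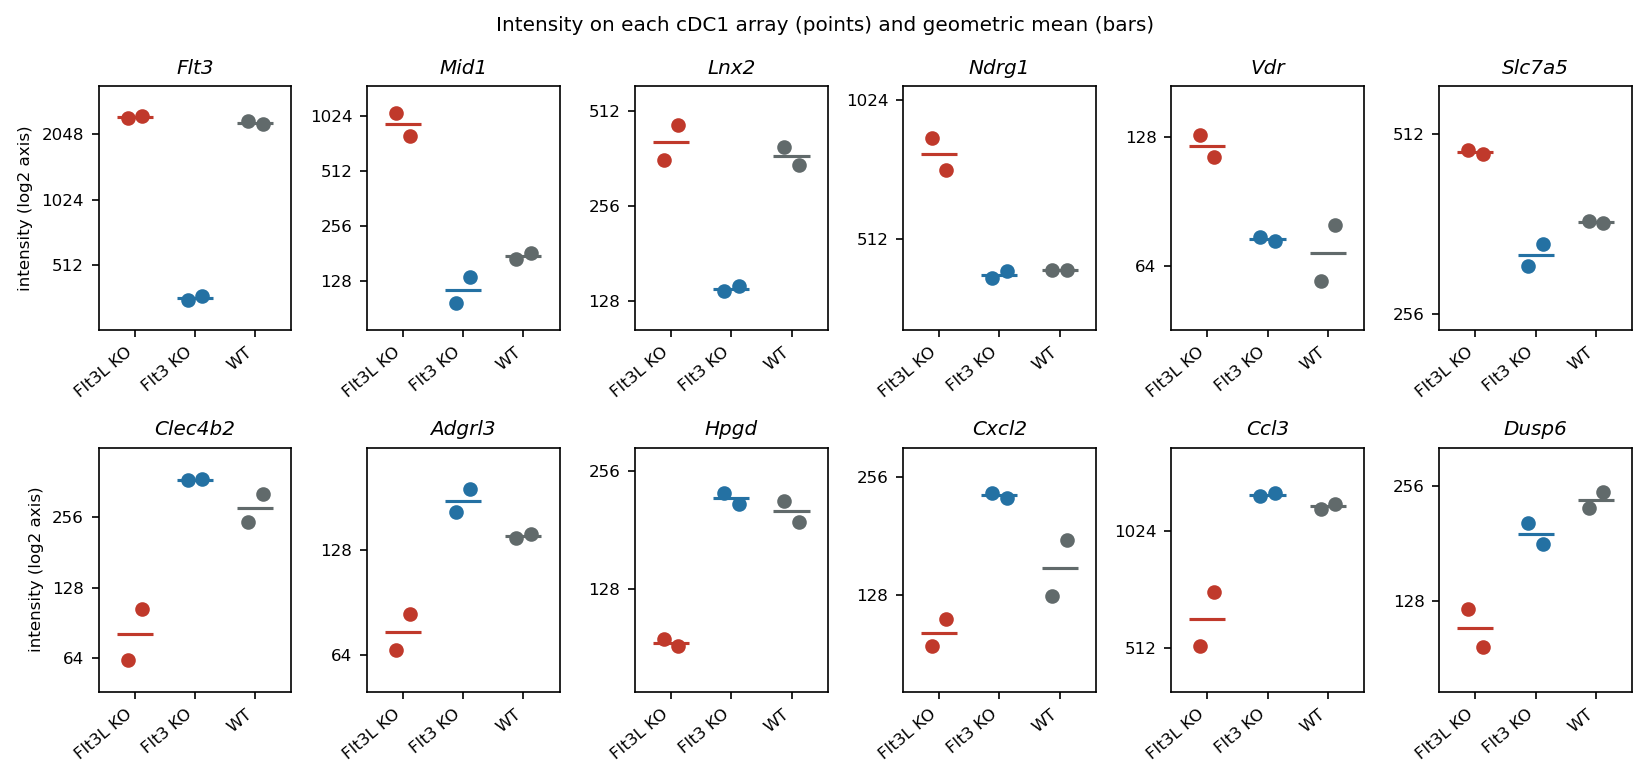
Intensity (log2 axis, scaled for each gene) on each Flt3L KO, Flt3 KO and WT cDC1 array; points are the 2 arrays of a group and bars their geometric mean. In these 12 genes the Flt3L KO and Flt3 KO arrays do not overlap; for Flt3 and Lnx2 the WT arrays lie with Flt3L KO, while for Ndrg1, Vdr, Hpgd and Ccl3 they lie with Flt3 KO.

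A pair of microRNA genes that neighbour each other on chromosome 8 was called higher. The probe sets named Mir23a had 356 and 321 in Flt3L KO cDC1, against 222 and 251 in Flt3 KO cDC1 (0.52 ± 0.11, adjusted p = 0.046). Mir27a had 473 and 457 in Flt3L KO cDC1, against 321 and 315 in Flt3 KO cDC1 (0.55 ± 0.12, adjusted p = 0.0494). WT cDC1 had 248 and 233 for Mir23a and 368 and 285 for Mir27a. Such probe sets do not tell the precursor from the mature arms, and no arm was measured on its own. The mature arms of both hairpins are printed from RefSeq (GRCm38.p6, all on the plus strand, 5′ to 3′), because the seed, bases 2 to 8 in capitals, sets which messages an arm pairs with.
mmu-miR-23a-3p (chr8:84208563-84208583): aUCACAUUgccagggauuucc
mmu-miR-27a-3p (chr8:84208727-84208747): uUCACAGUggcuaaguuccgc
mmu-miR-23a-5p (chr8:84208527-84208548): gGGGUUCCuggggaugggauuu
mmu-miR-27a-5p (chr8:84208685-84208706): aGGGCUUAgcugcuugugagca
The 4 arms carry 4 different seeds.

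Of the 99 genes lower in Flt3L KO cDC1, Clec4b2 had the largest fall. It is described with 11 other called genes for C-type lectins, scavenger or pattern receptors, all lower, which were put together after their values were seen, so that their number is no test of such receptors. Clec4b2, a C-type lectin of the DCIR and DCAR cluster, had 63.1 and 104 in Flt3L KO cDC1, against 366 and 369.6 in Flt3 KO cDC1. WT cDC1 had 243 and 319.6. The difference was -2.18 ± 0.20, 4.54-fold lower, with an adjusted p of 2.62e-04. Its relative Clec4b1 lay below the lower quartile of the arrays in cDC1, at 14.1 and 13.4 in Flt3L KO and 20.7 and 18.7 in Flt3 KO (-0.51 ± 0.10, adjusted p = 0.0428). The lectins share sequence, so probes may read more than 1 of them.

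Cd207, the langerin gene, had 113 and 166 in Flt3L KO cDC1, against 249.5 and 293 in Flt3 KO cDC1 (-0.98 ± 0.18, adjusted p = 0.0306). Its WT cDC1 values were 317 and 225. Cd36, a scavenger receptor for lipids and dying cells that marks cDC1, had 712 and 808 in Flt3L KO cDC1, against 1194 and 1160.0 in Flt3 KO cDC1 (-0.63 ± 0.10, adjusted p = 0.0195). Cd36 was the single called gene of 27 tested cDC1 identity genes, whose median difference was -0.07. Of these 27 differences, 21 were negative and 6 positive, while 8007 of all 14953 tested genes were positive. Timd4, a receptor for phosphatidylserine on dying cells, had 131 and 133 in Flt3L KO cDC1, against 206 and 215 in Flt3 KO cDC1 (-0.67 ± 0.11, adjusted p = 0.0165). WT cDC1 had still more, 239 and 256. Cd300c, an activating receptor, had 259 and 245 in Flt3L KO cDC1, against 423 and 459 in Flt3 KO cDC1 (-0.81 ± 0.09, adjusted p = 7.37e-04), and Cd300c2 differed by -0.39 ± 0.08 (adjusted p = 0.0494).

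Cd209a, a DC-SIGN relative and a marker of cDC2, had 164 and 115 in Flt3L KO cDC1, against 225 and 223 in Flt3 KO cDC1. WT cDC1 had 124 and 113, near the lower of the Flt3L KO arrays. The difference was -0.71 ± 0.13 (adjusted p = 0.0299). Against WT cDC1, Cd209a differed by 0.92 in Flt3 KO (adjusted p = 0.0165) and by 0.21 in Flt3L KO (adjusted p = 0.427). Tlr1, the sensor that pairs with TLR2 for lipopeptides, was called lower among 14 tested Toll-like receptor genes (-0.67 ± 0.14, adjusted p = 0.0494). Tlr3, which senses double-stranded RNA, had 698 and 683 in Flt3L KO and 1147 and 992 in Flt3 KO and missed the threshold (adjusted p = 0.0623). Cd1d1, which presents lipids to NKT cells, differed by -0.68 ± 0.10 (adjusted p = 0.00944).

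Chemokines direct the movement of leukocytes. 4 of 23 tested chemokine and chemokine receptor genes were called (17.4%, against 0.883% of all tested genes), all lower, with a list median of -0.11. The list was chosen with earlier results of these data known, so this share is no test of chemokine genes. Ccl2, outside that list, was lower as well. Ccl3, which attracts leukocytes, had 519 and 714 in Flt3L KO cDC1, against 1254 and 1280.1 in Flt3 KO cDC1, and 1165 and 1202 in WT cDC1. The difference was -1.06 ± 0.16, 2.08-fold lower (adjusted p = 0.0106). Ccl4, a related chemokine next to Ccl3 on chromosome 11, had 177 and 226 in Flt3L KO cDC1, against 309 and 318 in Flt3 KO cDC1 (-0.65 ± 0.11, adjusted p = 0.023). Cxcl2, which attracts neutrophils, had 94.4 and 110.4 in Flt3L KO cDC1, against 233 and 227 in Flt3 KO cDC1. Its WT cDC1 values, 127 and 176, lay between the knockouts. The difference was -1.17 ± 0.13 (adjusted p = 0.00109). Ccl6 had 162 and 235 in Flt3L KO and 345 and 299 in Flt3 KO (-0.72 ± 0.14, adjusted p = 0.0428), and Ccl2 had 166 and 165 in Flt3L KO and 244 and 285 in Flt3 KO (-0.67 ± 0.13, adjusted p = 0.0369). Ccl22, made by mature dendritic cells, was not called at 208 and 277 in Flt3L KO and 312 and 373 in Flt3 KO (adjusted p = 0.141).

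Other called genes encode enzymes and receptors of lipids and small metabolites. Hpgd, which inactivates prostaglandins, had 95.2 and 91.7 in Flt3L KO cDC1, against 224 and 211 in Flt3 KO cDC1, and 214 and 189.5 in WT cDC1. The groups were well apart, with a difference of -1.22 ± 0.12 (adjusted p = 3.94e-04). Cysltr1, a leukotriene receptor, was dim, at 34.1 and 27.8 in Flt3L KO and 57.4 and 62.4 in Flt3 KO (-0.96 ± 0.16, adjusted p = 0.0208). Lpar6, a receptor for lysophosphatidic acid, had 540.3 and 583 in Flt3L KO cDC1, against 1009 and 861 in Flt3 KO cDC1 (-0.73 ± 0.10, adjusted p = 0.00555). Entpd1 (CD39), which degrades extracellular ATP, had 332 and 319.8 in Flt3L KO cDC1, against 517 and 506 in Flt3 KO cDC1 (-0.65 ± 0.08, adjusted p = 0.00191). Mgll, a monoacylglycerol lipase, and Ffar2, a receptor for short-chain fatty acids, differed by -0.56 and -0.42 (adjusted p = 0.023 and 0.0483). With Ffar4, which was higher, these are 7 called genes put together after their values were seen, and WT cDC1 lay nearer Flt3 KO for all 7.

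A pair of adhesion G protein-coupled receptors was lower. Adgrl3, a latrophilin, had 66.0 and 83.6 in Flt3L KO cDC1, against 165 and 192 in Flt3 KO cDC1, and 139 and 143 in WT cDC1 (-1.26 ± 0.13, adjusted p = 6.13e-04). Adgrf5 was dimmer, at 27.7 and 30.2 in Flt3L KO and 73.3 and 60.7 in Flt3 KO (-1.21 ± 0.12, adjusted p = 6.20e-04). Rtn1, a reticulon of the endoplasmic reticulum, had 274 and 310.4 in Flt3L KO cDC1, against 538 and 591 in Flt3 KO cDC1, and 657 and 645 in WT cDC1. Its difference was -0.95 ± 0.09 (adjusted p = 4.39e-04), and every Flt3L KO value lay below every value of the other genotypes.

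Immediate early genes are those that cells switch on quickly after receptor signals. Of 36 tested immediate early and ERK feedback genes, 3 were called (8.33%, against 0.883% of all tested genes), all lower. This list too was chosen with earlier results of these data known, so the share is no test of such genes. The list median was -0.19 in cDC1 and -0.18 in cDC2. In cDC2 none of the 3 was called, but 2 other members were called lower, Egr3 (-0.64 ± 0.08, adjusted p = 0.00429) and Btg2 (-0.53 ± 0.08, adjusted p = 0.0151). Dusp6, the phosphatase that restrains ERK, had 122 and 96.6 in Flt3L KO cDC1, against 205 and 179.8 in Flt3 KO cDC1. WT cDC1 had 225 and 247, above both knockouts. The difference was -0.82 ± 0.16 (adjusted p = 0.0363). Against WT cDC1, Dusp6 differed by -1.12 in Flt3L KO (adjusted p = 0.00569) and by -0.29 in Flt3 KO (adjusted p = 0.449). Egr2, a zinc finger factor, had 1676 and 1911 in Flt3L KO cDC1, against 2644 and 2688 in Flt3 KO cDC1 (-0.58 ± 0.10, adjusted p = 0.0208). Ier3 had 74.7 and 77.5 in Flt3L KO cDC1, against 115 and 121 in Flt3 KO cDC1 (-0.63 ± 0.10, adjusted p = 0.0141).

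Other inducible genes outside that list fell as well. They were Phlda1 (-0.45), Maff (-0.46), Rcan1 (-0.70), an inhibitor of calcineurin, Ifrd1 (-0.41), Tiparp (-0.49) and Pmaip1 (-0.39), which encodes the death protein NOXA. Their adjusted p-values ran from 0.0127 for Rcan1 to 0.0483 for Ifrd1. Pmaip1 had 1359 and 1451 in Flt3L KO cDC1, against 1903 and 1769 in Flt3 KO cDC1, and was the single called gene of 14 tested BCL2 family genes. Spred1, an inhibitor of RAS signalling, had 89.9 and 103 in Flt3L KO and 135 and 134 in Flt3 KO and missed the threshold (adjusted p = 0.0519). Nr4a1, an immediate early nuclear receptor, had 5364 and 5764 in Flt3L KO and 6476 and 6499 in Flt3 KO (adjusted p = 0.16).

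**Figure D3:**
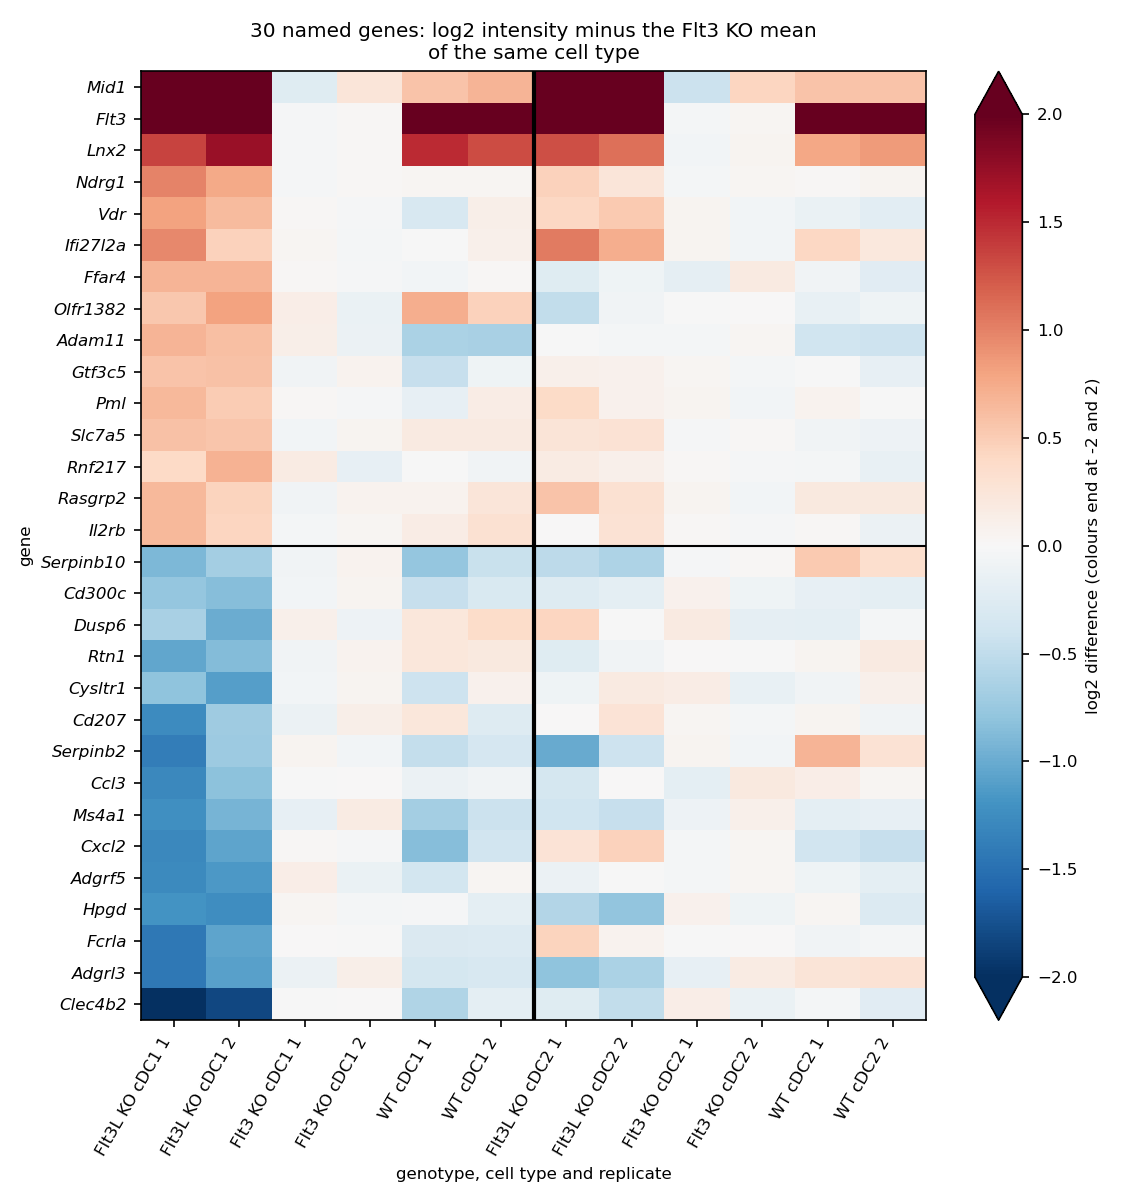
Log2 intensity of the 15 largest called rises and 15 largest called falls (rows) on each of the 12 arrays (columns), minus the Flt3 KO mean of the same cell type; red is higher and blue lower, with colours ending at -2 and 2. The Flt3L KO cDC1 columns are red above the horizontal line and blue below it by the choice of genes; WT cDC1 columns are pale for most genes and red for Flt3 and Lnx2.

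A pair of serpin genes and the gene of a protease were called lower. Serpinb2, an inhibitor of plasminogen activators, had 95.7 and 151 in Flt3L KO cDC1, against 258 and 240.4 in Flt3 KO cDC1, and 179 and 197 in WT cDC1 (-1.05 ± 0.21, adjusted p = 0.0428). Serpinb10, its neighbour on chromosome 1, had 199 and 231 in Flt3L KO cDC1, against 355 and 390.2 in Flt3 KO cDC1, and 217 and 273 in WT cDC1 (-0.80 ± 0.12, adjusted p = 0.00944). Plau, which encodes the urokinase that Serpinb2 protein inhibits, had 54.1 and 47.5 in Flt3L KO and 76.6 and 86.0 in Flt3 KO (-0.68 ± 0.12, adjusted p = 0.0306). Prdm1, which encodes the repressor BLIMP1, was lower too (-0.62 ± 0.11, adjusted p = 0.0232).

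Called genes that lie close together changed alike. Within 3 steps in the RefSeq gene order there were 10 pairs of called genes, and both genes of each pair changed in the same direction, against 54.9% of 19591 pairs of tested genes at that distance with the same sign; 99 of the 132 called genes were lower to begin with. The pairs were Serpinb2 and Serpinb10, Ccl6 and Ccl3, Ccl3 and Ccl4, Cd300c and Cd300c2, Clec4b1 and Clec4b2, Cd209a and Cd209e, Lnx2 and Polr1d, Mir23a and Mir27a, Sdhaf4 and Fam135a, and Med21 and Stk38l. The serpin, chemokine, CD300, CLEC4B and CD209 pairs are related genes whose probes may read each other's transcripts. The brighter probe set of Sdhaf4 was called and its dimmer one differed by 0.10.

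Because rapid-response genes were among those that fell, the promoters were searched, after the values were seen, for motifs of factors that such signals activate. The window ran from 250 bases before to 50 after the start site, from RefSeq (GRCm38.p6), on both strands. The AP-1 motif TGANTCA stood in 11 of the 83 lower genes that have a promoter in the table (13.3%) and in none of the 22 higher ones, against 5.52% of 11808 tested genes and 7.93% of all 27025 promoters. The cAMP response element TGACGTCA was in 2 lower genes (2.41%, against 2.90% of tested genes and 1.88% of all). The NF-kB motif was in 9 lower genes (10.8%, against 10.3% of tested genes and 8.18% of all), and the CArG box of serum response factor was in 1 (1.20%, against 1.36% and 1.57%). Dusp6, Egr2, Ier3, Phlda1, Maff, Rcan1, Ifrd1, Tiparp and Pmaip1, the lower inducible genes described above, were not among the 11 lower genes with TGANTCA. A match shows letters and no binding. The lower genes with TGANTCA were Serpinb2, Cd207, Serpinb10, Map2k6, Arap2, Heatr9, Prdm1, Cd244a, Tnfsf13b, Hfe and Ffar2. The promoters of the first 3 are printed 5′ to 3′ on the strand of the gene, with the AP-1 match in capitals, since these 3 are among the 15 largest falls.
Serpinb2 (GRCm38.p6 chr1:107511173-107511472, plus strand): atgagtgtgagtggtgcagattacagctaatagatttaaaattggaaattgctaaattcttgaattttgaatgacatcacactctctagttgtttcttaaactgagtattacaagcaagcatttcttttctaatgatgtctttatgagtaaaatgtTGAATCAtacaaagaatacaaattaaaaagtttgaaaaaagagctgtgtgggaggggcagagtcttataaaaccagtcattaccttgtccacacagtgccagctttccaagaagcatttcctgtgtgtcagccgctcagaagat
Cd207 (GRCm38.p6 chr6:83677808-83678107, minus strand): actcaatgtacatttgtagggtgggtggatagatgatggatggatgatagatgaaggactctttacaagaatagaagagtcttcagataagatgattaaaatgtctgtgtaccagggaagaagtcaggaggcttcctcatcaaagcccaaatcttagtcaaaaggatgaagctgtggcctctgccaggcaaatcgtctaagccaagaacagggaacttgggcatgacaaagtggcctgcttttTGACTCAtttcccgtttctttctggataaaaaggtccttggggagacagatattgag
Serpinb10 (GRCm38.p6 chr1:107528753-107529052, plus strand): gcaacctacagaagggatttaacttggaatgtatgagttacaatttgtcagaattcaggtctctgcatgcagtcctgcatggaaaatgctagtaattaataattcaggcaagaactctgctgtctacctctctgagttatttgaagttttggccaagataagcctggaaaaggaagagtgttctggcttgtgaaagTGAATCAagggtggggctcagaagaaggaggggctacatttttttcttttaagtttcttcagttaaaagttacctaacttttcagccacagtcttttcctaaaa
The match begins 94 bases before the start site in Serpinb2, 7 before it in Cd207 and 54 before it in Serpinb10. None of the 3 matches overlaps another of the motifs searched.

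A pair of called genes is known from B cells. Ms4a1 (CD20) had 63.2 and 77.6 in Flt3L KO cDC1, against 133 and 166 in Flt3 KO cDC1 (-1.08 ± 0.13, adjusted p = 0.00188), and Fcrla, an intracellular relative of Fc receptors, had 136 and 175 in Flt3L KO cDC1, against 365 and 362 in Flt3 KO cDC1 (-1.24 ± 0.13, adjusted p = 6.13e-04). WT cDC1 had 92.1 and 110.3 for Ms4a1 and 296 and 299 for Fcrla. The summed intensity of the B cell markers was 641 and 656 in Flt3L KO, against 685 and 718 in Flt3 KO cDC1. Ms4a1 was the single called gene of 9 tested, and 2 of the 12 members lay below the lower quartile on all 4 arrays. Cd79a, part of the B cell receptor, stood at 19.2 and 16.6 in Flt3L KO cDC1, against 15.6 and 15.5 in Flt3 KO cDC1. Its partner Cd79b had 94.5 and 82.2 in Flt3L KO cDC1, against 78.8 and 80.5 in Flt3 KO cDC1, and Pax5, a B cell transcription factor, had 54.6 and 53.0 in Flt3L KO cDC1, against 50.2 and 50.1 in Flt3 KO cDC1. Bank1, a B cell adaptor, had 54.2 and 52.2 in Flt3L KO cDC1, against 66.6 and 69.4 in Flt3 KO cDC1 (-0.35 ± 0.15, adjusted p = 0.267), with both Flt3L KO arrays lower. The part of B cell RNA in the falls of Ms4a1 and Fcrla was not tested.

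In the remaining marker lists of other cells, counts of 0 or 1 are near the 0.883% called of all tested genes. Summed monocyte markers were 7754 and 8496 in Flt3L KO cDC1, against 9752 and 9596 in Flt3 KO cDC1, with 0 of 9 tested genes called, and their part in the fall of the lectins and chemokines was not tested. Macrophage markers summed to 2052 and 2155 in Flt3L KO and 2353 and 2244 in Flt3 KO, with Timd4 lower among 15 tested. Sums weigh bright genes most, and the median difference of the 15 was 0.13, with 10 positive and 5 negative. Stem and progenitor markers summed to 4308 and 4286 in Flt3L KO and 3850 and 3881 in Flt3 KO, with 0 of 14 called. The median difference of the 14 was 0.006, with 7 positive and 7 negative, so the sum does not show a shift of the list. Plasmacytoid markers summed to 2163 and 1903 in Flt3L KO and 2002 and 2129 in Flt3 KO, with Cd300c lower among 9. None was called among 8 T cell, 4 NK cell, 5 neutrophil, 4 erythroid and 7 platelet markers.

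In lists of genes around FLT3, as in all short lists, a count of 0 or 1 is near the 0.883% called of all tested genes and sets no list apart. Of 22 tested genes of the receptor, ligand and proximal signalling, Flt3 was the single one called. None of 23 genes of other growth factor receptors and ligands was called; Kit, a related receptor tyrosine kinase, had 3494 and 3413 in Flt3L KO cDC1, against 3016 and 3002 in Flt3 KO cDC1 (0.20 ± 0.08, adjusted p = 0.232). None of 21 STAT and SOCS genes was called, with Socs2, a target of STAT5, at 316 and 404 in Flt3L KO and 440.5 and 449 in Flt3 KO (adjusted p = 0.196). None was called among 31 maturation genes (median -0.06), 18 genes of MHC class I presentation (0.01) and 15 of class II (-0.04). At an SE near 0.09, changes well under 1.5-fold were often not detectable.

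The same holds for metabolic and stress lists. None was called among 30 genes of oxidative phosphorylation (median -0.06), 22 of cholesterol biosynthesis (0.06), 24 of heat shock and the unfolded protein response (0.02) and 35 of the cell cycle (0.02). Ndrg1, described above as induced by hypoxia and other stress, was the single called gene in the glycolysis list of 22. Interferon-stimulated genes had a median of 0.23 with 23 of 27 positive, but none was called. In cDC2 their median was 0.31, and 2 were called higher, Mx2 (0.42 ± 0.08, adjusted p = 0.0324) and Oasl1 (1.05 ± 0.16, adjusted p = 0.0111). Ifi27l2a, an interferon-inducible gene outside the list, was called higher in both cell types. Rsad2, an antiviral enzyme, had 123 and 95.7 in Flt3L KO cDC1, against 59.8 and 83.9 in Flt3 KO cDC1 (0.62 ± 0.16, adjusted p = 0.0996). Ifit2 had 75.0 and 47.9 in Flt3L KO and 39.5 and 41.0 in Flt3 KO (adjusted p = 0.149) and Zbp1, a nucleic acid sensor, had 282 and 238 in Flt3L KO and 174 and 192 in Flt3 KO (adjusted p = 0.15). Both Flt3L KO values lay above both Flt3 KO values in these 3 genes, which were picked from the list for their small p. The groups did not overlap for 51.2% of all tested genes, so this does not set the 3 genes apart.

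The same comparison in cDC2 called 139 genes (0.93%). The cDC2 arrays are separate, but the labels do not say whether cDC1 and cDC2 with the same replicate number came from the same mice. The sign matched in cDC2 for 104 of the 132 cDC1 genes (78.8%), against 58.9% of all tested genes. The median size of the 132 log2 differences was 0.55 in cDC1 and 0.19 in cDC2. 18 genes were called in both cell types, 13.6% of the cDC1 genes and 12.9% of the cDC2 genes, and 17 of them had the same sign. They included Flt3, Mid1, Lnx2, Polr1d, Ifi27l2a and Gnb4 among the rises, and Adgrl3, Hpgd, Cd209a, Prdm1, Serpinb10 and St3gal6 among the falls. Hpgd had 378 and 326 in Flt3L KO cDC2, against 600.1 and 534 in Flt3 KO cDC2 (-0.69 ± 0.12, adjusted p = 0.0176). Cd209a had 759 and 799 in Flt3L KO cDC2, against 1562 and 1517 in Flt3 KO cDC2 (-0.98 ± 0.13, adjusted p = 0.00429).

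Cd36 was called in both with opposite signs. In cDC2 it had 143 and 124 in Flt3L KO cDC2, against 72.9 and 63.2 in Flt3 KO cDC2, and 51.1 and 57.7 in WT cDC2 (0.98 ± 0.10, adjusted p = 0.00147). The difference between the cell types itself was -1.61 ± 0.15 (adjusted p = 0.00129). A test of that difference called 17 genes (0.114%), 10 of which were among the 132. Clec4b2 differed by -1.82 (adjusted p = 0.0448), being dim in cDC2 at 32.7 and 27.7 in Flt3L KO and 42.6 and 35.4 in Flt3 KO. Fcrla differed by -1.50 (adjusted p = 0.00724) and Cxcl2 by -1.54 (adjusted p = 0.00724). Cxcl2 had 126 and 142 in Flt3L KO cDC2, against 102 and 106 in Flt3 KO cDC2 (0.37, adjusted p = 0.258). Flt3 itself differed between cell types by 0.56 ± 0.10 without passing the threshold (adjusted p = 0.0676).

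**Figure D4:**
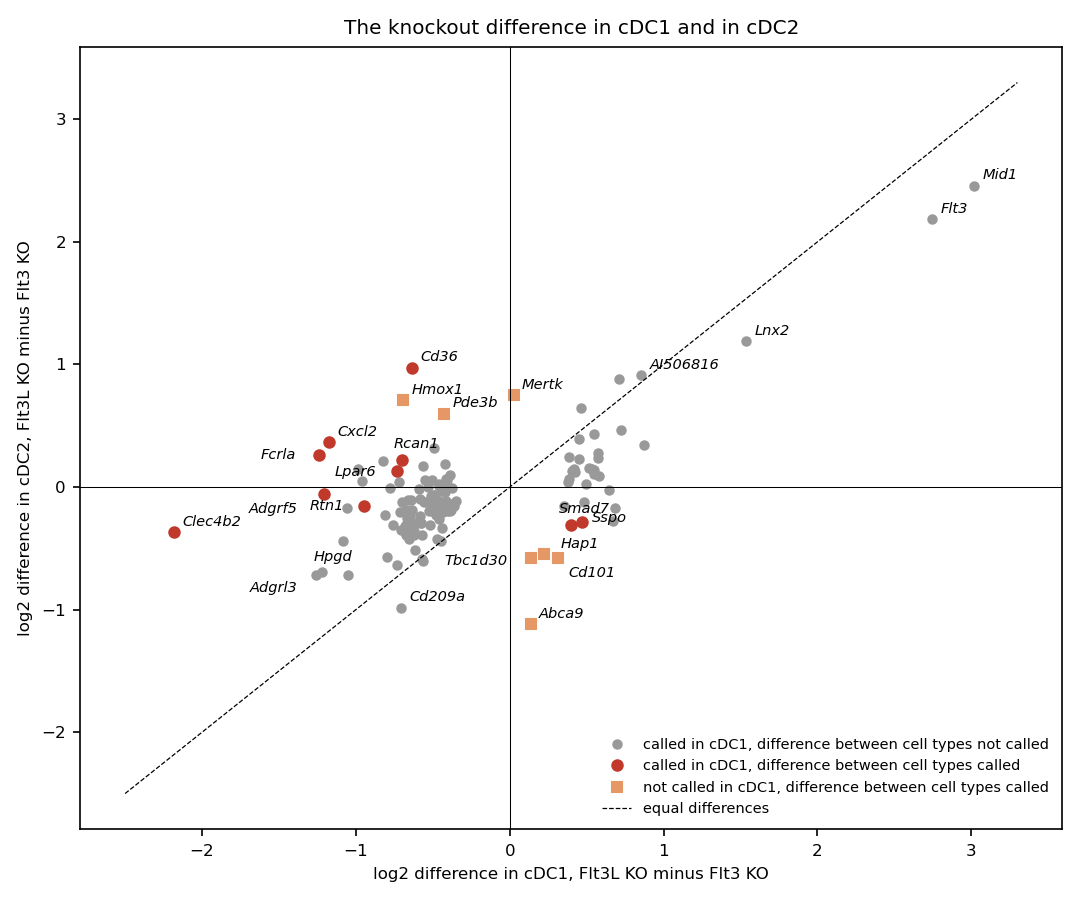
Log2 difference Flt3L KO minus Flt3 KO in cDC1 (horizontal axis) and cDC2 (vertical axis) for the 132 genes called in cDC1 (circles; red for the 10 whose difference between cell types was called) and 7 further genes with a called difference between cell types (squares); the dashed line marks equal differences. Mid1, Flt3 and Lnx2 lie near the line, Cd36 and Cxcl2 lie above zero in cDC2 and below it in cDC1, and most lower genes sit close to zero in cDC2.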

How the data were processed

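RNA of sorted cells was amplified, biotin-labelled and hybridised to GeneChip arrays, per the labels' protocols. The authors deposited 1 intensity per probe set and array on a linear scale; their summarisation, normalization and genome build are not given in the sources used here. Their table listed 30177 probe sets. The 21789 with exactly 1 gene symbol were used, and for 999 genes with several the brightest on average was kept; 1621 probe sets with several symbols and 6767 with none were tested apart. Of 19938 genes, the share of 0.25 with the lowest average log2 intensity was dropped (Flt3 and Flt3l were always kept), which left 14953 genes and put the limit at a log2 average of 4.78.

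A model with group means over all 12 arrays was fitted to the log2 values with limma 3.58.1 (R 4.3.3, statmod 1.5.0), leaving 6 residual degrees of freedom, with Benjamini-Hochberg adjustment over all tested genes. The fit was tested on simulated data. Named genes are Flt3, Flt3l, the 15 largest called rises and falls without overlap between groups, up to 4 genes of smallest p in each of 31 lists, cell identity markers and called neighbours of Flt3 and Flt3l. Predicted, clone-named and small RNA genes were left out of the rises and falls; the microRNAs, further called genes, their roles and the promoter motifs were picked after their values were seen. The members and lists were chosen with earlier results of these data known.

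Whether equal replicate numbers share mice is not labelled. Replicate deviations correlated at 0.0531 between Flt3L KO and Flt3 KO cDC1. Between cDC1 and cDC2 of 1 genotype they correlated at 0.146 in Flt3L KO, 0.0885 in Flt3 KO and 0.159 in WT, so pairing was not settled. Precision is limited by 2 arrays per group. Alternatives were quantile normalization, other filters on dim genes, another variance prior, the mean of probe sets, fewer arrays, a replicate block and leaving out arrays. Sequences came from RefSeq tables (GRCm38.p6), which were also used for gene order.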

Additional observations from a re-analysis of the deposited data

Results flagged for a closer look

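The difference between Flt3L KO and Flt3 KO itself differed between cDC1 and cDC2 for 17 genes in limma (log2 difference in cDC1 minus that in cDC2). Of these, 11 were negative. They were Clec4b2 (-1.82), Cd36 (-1.61), Cxcl2 (-1.54), Fcrla (-1.50), Hmox1 (-1.40), Adgrf5 (-1.15), Pde3b (-1.03), Rcan1 (-0.92), Lpar6 (-0.86), Rtn1 (-0.80) and Mertk (-0.73). The 6 positive ones were Abca9 (1.26), Cd101 (0.89), Hap1 (0.77), Sspo (0.76), Tbc1d30 (0.72) and Smad7 (0.71).

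Hmox1, the heme-degrading enzyme, had 171 and 238 in Flt3L KO cDC1, against 389 and 274 in Flt3 KO cDC1 (-0.69, adjusted p = 0.0714). In cDC2 it ran the other way, at 189 and 215 in Flt3L KO cDC2, against 121 and 126 in Flt3 KO cDC2 (0.71, adjusted p = 0.0663), and only the difference between cell types passed the threshold (adjusted p = 0.0467). Mertk, a receptor for dying cells, was dim in cDC1 at 29.6 and 27.6 in Flt3L KO and 28.9 and 27.3 in Flt3 KO. In cDC2 it had 60.6 and 57.4 in Flt3L KO cDC2, against 36.9 and 33.3 in Flt3 KO cDC2 (0.75, adjusted p = 0.00175). Abca9, a lipid transporter gene, had 27.6 and 29.6 in Flt3L KO and 28.0 and 24.1 in Flt3 KO in cDC1, and 77.4 and 82.1 in Flt3L KO cDC2, against 169 and 177 in Flt3 KO cDC2 (-1.12, adjusted p = 2.65e-04).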

How the results depend on the processing

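All 132 genes called between Flt3L KO and Flt3 KO cDC1 kept their sign in each setting that tested them, and 13 were called in every setting: Adgrl3, Cd300c, Clec4b2, Cxcl2, Entpd1, Fcrla, Flt3, Hpgd, Lnx2, Mid1, Ms4a1, Ndrg1 and Rtn1. The number called changed more. It was 86 with no filter on dim genes, 267 with a share of 0.5 left out, 401 with a trended and robust variance prior and 78 with only the arrays compared; leaving out a knockout array gave 16 to 63, and leaving out either WT cDC1 array 349. In these fits the array left alone in its group is assumed to vary like the other groups, and the WT fits were chosen after seeing the data. Quantile normalization gave 126 and averaging the probe sets of each gene 131. With only the arrays compared, 62 of the 132 genes stayed called.

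In cDC2 the variance prior gave 268 calls, and leaving out single arrays gave 8 to 130. The count of genes that differed between cell types was 5 with quantile normalization, 7 with no filter, 42 with the variance prior, 6 with only the arrays compared, and 2 to 29 without single arrays. The percentage of called genes with WT cDC1 nearer Flt3 KO was 49.9 without WT cDC1 replicate 2, and 70.0 to 92.1 without other single arrays. The cause of these changes was not tested.

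With the replicate number as a block, though no label says what a shared number means, 69 genes were called in cDC1 (62 of them among the 132), 95 in cDC2 and 7 between cell types, at 4 residual degrees of freedom. A replicate block within each genotype, added after seeing the data, called 12 genes between cell types, 8 of them among the 17; Clec4b2 was not called (adjusted p = 0.0745). Among single genes, 748 values under an alternative were no longer past the threshold and 80 newly passed it. A further 24 values changed sign, none of them past the threshold in either fit. With 2 arrays per group, small changes and dim genes were often not resolved.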

Other observations

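Kcnma1, a potassium channel gene picked after its values were seen, had the largest log2 difference of all tested genes in cDC1, 3.90 ± 0.90, and was not called (adjusted p = 0.0657). It had 689 and 96.9 in Flt3L KO cDC1, against 17.2 and 17.4 in Flt3 KO cDC1. In cDC2 it had 953 and 87.6 in Flt3L KO cDC2, against 19.6 and 18.9 in Flt3 KO cDC2. The WT arrays had 19.2 and 15.7 in cDC1 and 13.7 and 16.8 in cDC2. In both cell types Flt3L KO replicate 1 was far above replicate 2, and both were above every array of the other genotypes.

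Nnt, a mitochondrial transhydrogenase gene, separated both knockouts from WT but not from each other. It had 323 and 320.4 in Flt3L KO cDC1, against 362 and 327 in Flt3 KO cDC1, and 115 and 117 in WT cDC1. The direct difference was -0.10 ± 0.09 (adjusted p = 0.654), while the differences from WT were 1.47 in Flt3L KO (adjusted p = 9.85e-06) and 1.57 in Flt3 KO (adjusted p = 2.29e-06), over the same WT arrays.

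The Y-linked gene Eif2s3y had 151 and 151 in Flt3L KO cDC1, against 209 and 234 in Flt3 KO cDC1 (-0.56, adjusted p = 0.151), and 134 and 210.5 in WT cDC1. Of probe sets without a gene symbol, 4302 were tested apart and 12 were called, 10 of them higher in Flt3L KO cDC1. Of 1013 with several symbols, 2 were called and both were lower.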
